A study of Mus musculus with 45 samples.

Results

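The regions described here are the open chromatin regions (OCRs) around the 4 mouse Sall genes, Sall1, Sall2, Sall3 and Sall4. A peak of the deposited ATACseq peak list is a member when its summit lies within 60 kb of the annotated 5′ end of one of these genes, which holds for 100 of 184964 peaks: 28 at Sall1, 18 at Sall2, 21 at Sall3 and 33 at Sall4. Peaks were taken by position alone and by no measured level. The 4 genes themselves were chosen with earlier results of these data known. ATACseq counts the DNA fragments released where the Tn5 transposase can insert, so a peak with more fragments is more accessible.

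The Sall genes encode zinc finger transcription factors related to Drosophila spalt. SALL4 is needed for the inner cell mass and for the self-renewal of embryonic stem cells, where it is found in complexes with OCT4 and NANOG, and SALL1 is known from kidney development. SALL1 and SALL4 recruit NuRD, a co-repressor that combines nucleosome remodeling with histone deacetylation. SOX2 is an HMG box factor and OCT4, encoded by Pou5f1, a POU factor, and the pair can bind DNA side by side on a composite site.

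The study asked how accessibility follows the loss of SOX2, OCT4 or NANOG. In mouse embryonic stem cells the endogenous factor carries an FKBP degron tag, and the small molecule dTAG-13 directs the tagged protein to the proteasome. SOX2-FKBP and NANOG-FKBP are E14 derivatives and OCT4-FKBP is a V6.5 derivative, all grown without serum in LIF with a MEK and a GSK3β inhibitor. Treated cells received 500 nM dTAG-13, and cells called NT (not treated) received DMSO.

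SOX2-FKBP has 2 libraries at each of NT, 0.5, 1, 2, 6 and 24 h. OCT4-FKBP has 2 libraries at each of NT, 2, 6 and 24 h, and NANOG-FKBP has 2 NT libraries and 3 at each of 2, 6 and 24 h. The methods describe picked homozygous clones for SOX2-FKBP and NANOG-FKBP, while OCT4-FKBP came from another laboratory and its clonal origin is not given in the sources used here. A difference between lines is thus also one between separately derived cells and, for OCT4, between strains. They also mention an independent clone for SOX2 and duplicates for NANOG without saying which replicate is which, so p-values measure only the spread between these libraries, which may be technical. All times of a line are compared with the same NT libraries, and peaks are not replicates of a condition. In bulk counts, fewer cells with a site open and less opening in each cell cannot be told apart. The NANOG-FKBP libraries fall into 2 sets by the share of counts on chromosome 8, with 6.998% to 7.104% in NT replicate 2 and replicate 3 of each treated time and 5.51% to 5.80% in the other 7.

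The sequences around 5 summits are shown because the results turn on these peaks: the leading peaks of Sall4, Sall1 and Sall2, the only member with a composite SOX-POU word within 300 bp around its summit, and a Sall4-window peak lost in both the SOX2 and the OCT4 time course that holds none of the words. They are from the RefSeq GRCm38.p6 genome, which is mm10, on the plus strand. Capitals mark words found by a search of both strands for CATTGT or CTTTGT (SOX), ATGCNAAT (POU) and TTGTNATGC (the core of the composite SOX-POU site). A SOX word and the composite core can overlap. None of the stretches overlaps an annotated exon.
Sall4, 1519 bp upstream, chr2:168769342-168769581: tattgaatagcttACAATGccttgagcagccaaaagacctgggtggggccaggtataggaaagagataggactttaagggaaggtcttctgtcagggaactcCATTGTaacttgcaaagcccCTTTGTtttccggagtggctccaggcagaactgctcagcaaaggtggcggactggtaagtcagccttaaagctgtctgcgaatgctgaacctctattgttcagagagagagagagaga
Sall1, 52273 bp downstream, chr8:88991789-88991988: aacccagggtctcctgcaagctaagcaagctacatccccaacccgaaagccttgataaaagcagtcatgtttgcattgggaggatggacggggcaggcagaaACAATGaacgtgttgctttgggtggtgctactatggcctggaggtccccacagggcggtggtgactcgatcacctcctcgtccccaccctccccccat
Sall2, 44397 bp downstream, chr14:52284245-52284484: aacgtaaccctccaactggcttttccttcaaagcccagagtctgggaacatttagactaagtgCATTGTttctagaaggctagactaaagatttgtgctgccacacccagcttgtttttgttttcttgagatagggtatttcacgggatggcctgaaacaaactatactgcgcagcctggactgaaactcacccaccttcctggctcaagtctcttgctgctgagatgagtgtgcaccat
Sall1, 22396 bp upstream, chr8:89066458-89066657: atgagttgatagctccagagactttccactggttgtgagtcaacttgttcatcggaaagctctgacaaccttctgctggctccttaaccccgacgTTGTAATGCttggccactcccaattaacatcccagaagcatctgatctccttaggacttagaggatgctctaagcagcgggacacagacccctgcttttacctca
Sall4, 50533 bp downstream, chr2:168717310-168717509: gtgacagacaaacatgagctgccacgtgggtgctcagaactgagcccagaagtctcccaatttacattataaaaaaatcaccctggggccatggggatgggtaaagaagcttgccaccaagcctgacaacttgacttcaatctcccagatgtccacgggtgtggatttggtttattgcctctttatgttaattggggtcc
The first Sall4 stretch holds 3 SOX words within 240 bp, both words on the plus strand and the first of them also on the minus strand. The Sall1 stretch 52273 bp downstream holds that word on the minus strand and the Sall2 stretch holds it on the plus strand. The Sall1 stretch 22396 bp upstream holds the composite core, and the last stretch holds no word. A word match describes letters only and does not show that a factor binds there.

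Over all 100 members, the words were about as frequent as elsewhere. Within 300 bp around the summit the composite core was in 1 member (1%) against 1.27% of 184798 peaks, a SOX word in 34 members (34.0%) against 34.9%, and a POU word in 4 members (4.0%) against 4.80%. Over whole peaks the shares were 4.0% against 2.41% for the core, 55.0% against 59.0% for SOX and 11% against 9.14% for POU. These shares are given without a test.

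Sall1 lies on chr8:89027235-89044162, Sall2 on chr14:52311172-52328762, Sall3 on chr18:80966376-80986771 and Sall4 on chr2:168748332-168767943 of mm10, all on the minus strand. The Sall1 window holds no start of another protein-coding gene: 24 of its 28 summits are intergenic, 2 lie in introns and 2 in coding exons. The Sall4 window also holds the start of Atp9a, a lipid-transporting ATPase gene, and its 33 summits fall in intergenic sequence (14), introns (13), coding exons (4) and untranslated regions (2). The Sall3 window holds the start of the related Atp9b, with 14 of 21 summits intergenic. The Sall2 window is gene-dense, with the starts of Mettl3 (an RNA methyltransferase), Tox4, Rab2b and 2 olfactory receptor genes, and only 3 of its 18 summits are intergenic. Proximity assigns these peaks to the Sall genes, and which promoter each acts on was not measured. The members nearest the window limit have summits 57940 bp (Sall1), 59991 bp (Sall2), 58405 bp (Sall3) and 59973 bp (Sall4) from the 5′ end, and the nearest peaks left out have theirs at 60606, 70969, 60107 and 62662 bp.

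Levels below are normalized counts (TMM scaled, per 10000000 counts), and differences are log2 fold changes against NT with an approximate standard error. Called peaks have an adjusted p under 0.05 by edgeR's quasi-likelihood test with p adjusted by Benjamini-Hochberg over every peak in the fit. A called peak is lost when lower and gained when higher than NT. Of the 100 members, 85 passed the count filter of the SOX2 fit and 92 that of the fit of the 3 lines. These filters asked for over 10 counts in over 2 libraries and in over 6 libraries, which no single time group could meet alone. The numbers tested are thus not all members.

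Per kb of peak, which allows levels of different genes to be set side by side, the peaks nearest the 5′ ends were most open at Sall1 and Sall4. In SOX2-FKBP NT libraries the Sall1 peak held 169 to 197 normalized counts per kb, the Sall4 peak 151 to 163, the Sall3 peak 64.4 to 64.9 and the Sall2 peak 12.3 to 18.5. These 4 ranges did not overlap. The order rests on 1 annotated 5′ end per gene. At Sall2 the intronic peak 2691 bp downstream held 49 and 27 raw counts over 572 bp in these libraries. The peak nearest the 5′ end held 15 and 14 over 1077 bp. In OCT4-FKBP NT libraries the order was again Sall1 (251 to 311), Sall4 (142 to 152), Sall3 (61.8 to 85.1) and Sall2 (35.1 to 40.1), and in NANOG-FKBP it was Sall1 (178 to 242), Sall4 (157 to 164), Sall3 (50.4 to 95.2) and Sall2 (16.96 to 30.9). No neighboring ranges overlapped in these lines either, with 2 libraries a range. Peaks on chromosome 8, where Sall1 lies, took 7.41% to 7.71% of the counts of OCT4-FKBP libraries and 5.17% to 5.35% in SOX2-FKBP, and the part this plays in the higher Sall1 level per kb of OCT4-FKBP was not tested.

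After SOX2 depletion, accessibility at the Sall loci mostly fell where it moved, and the number of moving peaks grew with time. Of 85 members tested, 3 were lost and 1 gained at 0.5 h, where 3.14% of all peaks tested were lost and 0.158% gained. The counts were 4 lost and 2 gained at 1 h (all peaks 5.46% and 0.889%), 8 and 1 at 2 h (7.28% and 1.46%), 7 and 3 at 6 h (9.28% and 2.66%), and 14 and 6 at 24 h (14.1% and 9.17%). Among members the 24 h shares were 16.5% lost and 7.06% gained, near the shares of all peaks. The median difference over the members tested was -0.05 at 0.5 h and -0.02 at 24 h, beside -0.01 and 0.04 over all peaks tested. With the replicate number as a block, 5 members were lost at 0.5 h and 2 gained at 2 h. With library totals in place of TMM, the 2 h counts were 7 lost and 2 gained, and the gained share of all calls at 2 h was 27.4% in place of 16.7%. Without the 0.5 h replicate 1 library, 0 members were lost at 0.5 h by edgeR. The 8 lost at 2 h became 5 with DESeq2, in the 27-library fit and on leaving out any NT or 2 h library. The 3 gained at 6 h became 1 with DESeq2 or in the 27-library fit, and the 6 gained at 24 h became 1 with DESeq2 or without NT replicate 1, and became 2 in the 27-library fit or without NT replicate 2.

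After OCT4 depletion, the numbers of lost and gained members grew with time and were equal at 24 h. Of 92 members tested, 5 were lost and 2 gained at 2 h (all peaks 5.1% and 1.92%), 7 and 3 at 6 h (7.97% and 4.12%), and 12 and 12 at 24 h (12.7% and 10.8%). The member shares at 24 h were 13.04% in each direction. The median difference was 0.02 at 2 h and -0.03 at 24 h, beside 0.02 and -0.01 over all peaks tested. With the replicate block, 6 members were gained at 2 h, 8 at 6 h, and 19 were lost at 24 h. With library totals, which moved the median difference of all peaks at 24 h to -0.14, the 24 h counts were 18 lost and 9 gained, and the gained share of all calls was 34.4% in place of 46.1%. Leaving out the 24 h replicate 1 library left 4 gained members at 24 h, and leaving out NT replicate 1 or 2 left 6 or 5.

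After NANOG depletion, the Sall loci changed little. By edgeR, 0 of 92 members were lost or gained at 2 h (all peaks 0.938% and 0.0162%) and at 6 h (1.08% and 0.0367%), with 5 and 8 members at an unadjusted p under 0.05 and 0 called by DESeq2 at either time. At 24 h, 2 members were lost and 0 gained (all peaks 2.25% and 0.288%), with 9 at an unadjusted p under 0.05 and 1 lost by DESeq2. Without NT replicate 2, or without 24 h replicate 3, 0 members were lost at 24 h.

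Over all comparisons with NT, 37 of the 93 members tested in either fit were called at some time in some line (39.8%), near the 38.3% of all peaks tested. Called members numbered 10 of 28 tested at Sall1, 4 of 14 at Sall2, 12 of 21 at Sall3 and 11 of 30 at Sall4, and these shares were not tested against each other. In SOX2-FKBP 14 members were lost at some time and in OCT4-FKBP 13, and 9 were in both lists (64.3% of the SOX2 list and 69.2% of the OCT4 list, beside 56.3% and 58.1% over all peaks). For gains the lists held 9 and 14 members with 4 in both (44.4% and 28.6%, beside 39.8% and 31.3%). No member was called in opposite directions in the SOX2 and OCT4 time courses, and such calls were not counted over all peaks. With the replicate block, the Sall4 peak 1519 bp upstream was lost after SOX2 and gained at 2 h after OCT4 depletion.

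**Figure D1:**
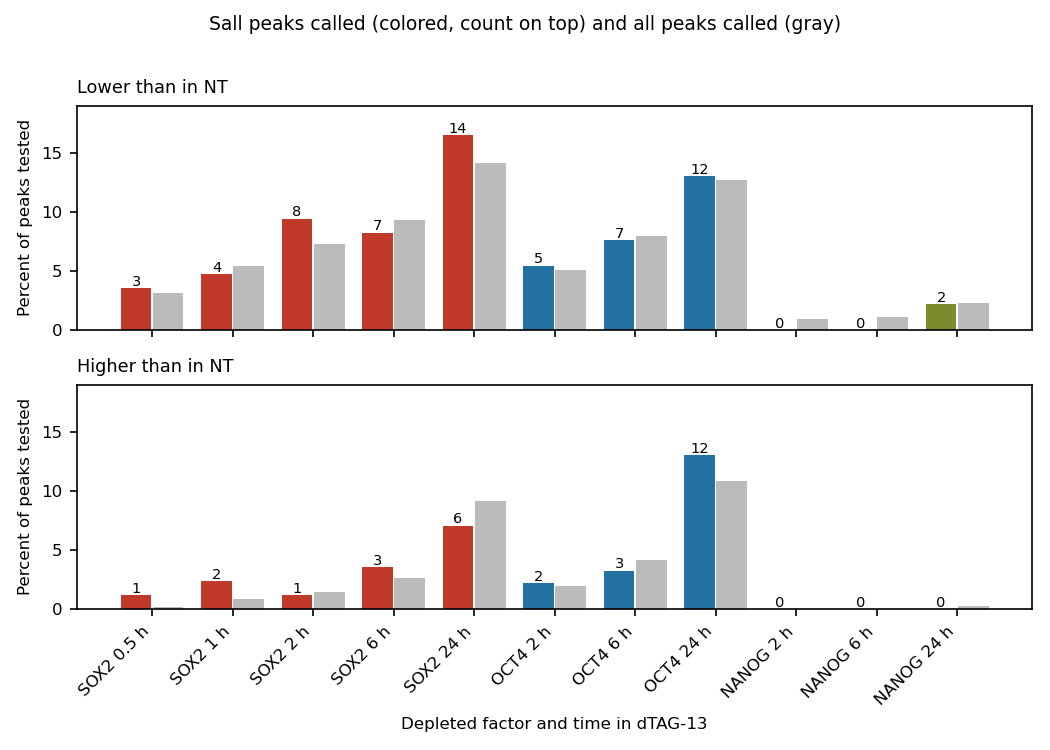
Percent of peaks tested that were lost (upper panel) or gained (lower panel) in each of the 11 comparisons with NT, for the Sall members (colored bars, with the number of members on top) and for all peaks tested (gray bars). Member bars stand near the gray bars at 24 h of SOX2 depletion, 16.5% against 14.1% for losses.

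**Figure D2:**
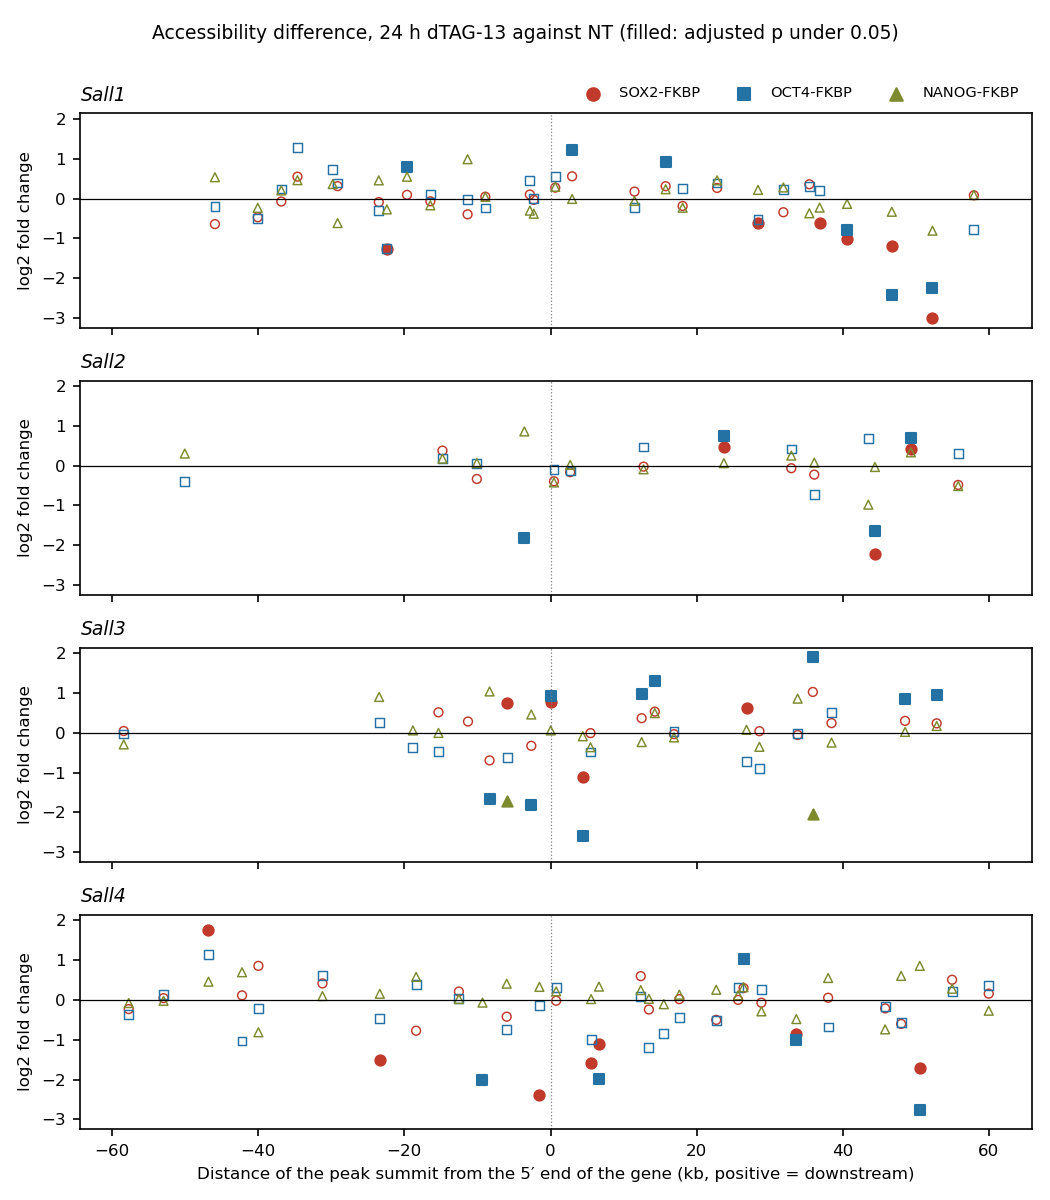
Log2 fold change at 24 h of dTAG-13 against NT (y axis) for each tested member, by distance of its summit from the 5′ end of the gene in kb (x axis, positive values downstream), with a panel per gene and a color per depleted factor. Filled points have an adjusted p under 0.05, and the lowest point at Sall1 is the SOX2 value of -3.0 at 52.3 kb downstream.

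At Sall4, a peak 1519 bp upstream of the 5′ end (chr2:168769295-168769796, intergenic) was lost within 0.5 h of SOX2 depletion, while OCT4 and NANOG depletion left it without a call. In SOX2-FKBP, the NT libraries held 75.6 and 71.3 normalized counts, and the treated libraries held 16.04 and 35.8 at 0.5 h, 26.9 and 28.0 at 1 h, 26 and 26.99 at 2 h, 14.6 and 17.2 at 6 h and 18.3 and 10.6 at 24 h. All 10 treated libraries lay below both NT libraries, and the level at 24 h was 19.7% of NT. The differences were -1.69 ± 0.29 at 0.5 h (adjusted p = 0.000219), -1.49 ± 0.28 at 1 h (adjusted p = 0.000340), -1.53 ± 0.27 at 2 h (adjusted p = 5.71e-05), -2.25 ± 0.29 at 6 h (adjusted p = 2.02e-07) and -2.38 ± 0.30 at 24 h (adjusted p = 9.46e-08). The 0.5 h libraries stood apart from each other, and without 0.5 h replicate 1 the 0.5 h difference was -1.085 and no longer called.

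In OCT4-FKBP, the NT libraries held 81.3 and 65.0 normalized counts, and the treated libraries held 137 and 103 at 2 h, 109 and 61.2 at 6 h and 76.5 and 55.3 at 24 h. Both 2 h libraries were above both NT libraries, and at 6 and 24 h the groups overlapped. The differences were 0.71 ± 0.28 at 2 h (adjusted p = 0.147), 0.22 ± 0.28 at 6 h (adjusted p = 0.730) and -0.14 ± 0.31 at 24 h (adjusted p = 0.806), none called. The 2 h difference was called as a gain with the replicate block (0.70, adjusted p = 0.00651). In NANOG-FKBP, the NT libraries held 104 and 46.5 and the 24 h libraries 109, 113 and 71.2, overlapping groups with a difference of 0.33 ± 0.30 (adjusted p = 0.787).

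A more distant upstream peak of Sall4, 23358 bp from the 5′ end (chr2:168790837-168791805, intergenic), was lost from 2 h of SOX2 depletion on. In SOX2-FKBP, the NT libraries held 99.4 and 101 normalized counts, and the treated libraries held 48.1 and 86.3 at 0.5 h, 75.2 and 65.4 at 1 h, 52.0 and 70.5 at 2 h, 44.6 and 42.6 at 6 h and 38.7 and 33.8 at 24 h. Every treated library was below both NT libraries, and the lowest values were at 24 h. The differences were -0.71 ± 0.23 at 0.5 h (adjusted p = 0.0916), -0.57 ± 0.23 at 1 h (adjusted p = 0.163), -0.76 ± 0.22 at 2 h (adjusted p = 0.0198), -1.25 ± 0.23 at 6 h (adjusted p = 0.000100) and -1.50 ± 0.24 at 24 h (adjusted p = 7.92e-06), called from 2 h on. The 0.5 h and 1 h differences were called too with the replicate block (-0.73, adjusted p = 0.00692 and -0.56, adjusted p = 0.0411), while DESeq2 did not call 2 h (adjusted p = 0.170) and neither did edgeR without SOX2-FKBP NT replicate 1 (-0.79), SOX2-FKBP NT replicate 2 (-0.77) or SOX2-FKBP 2 h replicate 1 (-0.58). In OCT4-FKBP the NT libraries held 100.2 and 89.7 and the 24 h libraries 78.0 and 58.5, lower without overlap but not called (-0.47 ± 0.28, adjusted p = 0.253).

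The peak 50533 bp downstream (chr2:168717141-168717885) lies in an intron of Atp9a and fell in both the SOX2 and the OCT4 time course. The NT libraries of OCT4-FKBP held 61.6 and 47.1 normalized counts, and the treated libraries held 13.6 and 14.4 at 2 h, 19.4 and 9.27 at 6 h and 9.17 and 6.502 at 24 h, all below NT, with differences of -1.93 ± 0.34 at 2 h (adjusted p = 0.000115), -1.91 ± 0.33 at 6 h (adjusted p = 3.28e-05) and -2.75 ± 0.44 at 24 h (adjusted p = 8.80e-06). The NT libraries of SOX2-FKBP held 26.4 and 39.9 normalized counts, and the treated libraries held 16.98 and 17.9 at 0.5 h, 21.5 and 20.2 at 1 h, 10.0 and 11.3 at 2 h, 14.6 and 18.8 at 6 h and 7.13 and 12.6 at 24 h. The treated libraries were again all below both NT libraries, and the loss was called at 2 h (-1.63 ± 0.36, adjusted p = 0.00153), 6 h (-0.97 ± 0.33, 0.0447) and 24 h (-1.71 ± 0.37, 0.000574). The 6 h SOX2 call was lost with DESeq2 (adjusted p = 0.318), with library totals, in the 27-library fit and without SOX2-FKBP NT replicate 2 (-0.72), SOX2-FKBP 6 h replicate 1 (-0.80) or SOX2-FKBP 6 h replicate 2 (-1.19). In NANOG-FKBP the level was 18.3 and 13.3 in NT and 30.9, 13.6 and 32.4 at 24 h, with no call.

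Inside Sall4, an intronic peak 6630 bp downstream of the 5′ end (chr2:168760838-168761693) was lost in both the SOX2 and the OCT4 time course. The OCT4-FKBP NT libraries held 177 and 201 normalized counts, and the treated libraries held 77.6 and 115 at 2 h, 62.0 and 80.3 at 6 h and 29.1 and 66.6 at 24 h. No treated library reached the NT level, and the differences were -0.96 ± 0.29 at 2 h (adjusted p = 0.0359), -1.41 ± 0.30 at 6 h (adjusted p = 0.000621) and -1.99 ± 0.34 at 24 h (adjusted p = 2.65e-05). The SOX2-FKBP NT libraries held 150.4 and 134 normalized counts, and the treated libraries held 112 and 137 at 0.5 h, 139 and 80.9 at 1 h, 118 and 87.9 at 2 h, 105 and 112 at 6 h and 78.4 and 58.0 at 24 h. The 0.5 h and 1 h libraries overlapped NT, the later ones were below it, and the call came at 24 h (-1.11 ± 0.22, adjusted p = 0.000147). With the replicate block the 2 h and 6 h SOX2 differences were called as well (-0.53, adjusted p = 0.0133 and -0.43, adjusted p = 0.0493). The OCT4 call at 2 h was lost with DESeq2 (adjusted p = 0.0742), with separate fits per line and on leaving out any of NT and 2 h replicates, where it lay between -1.26 and -0.73. A neighboring intronic peak, 5558 bp downstream and chosen after its values were seen, followed in both lines, with 51.9 and 38.5 in SOX2-FKBP NT against 11.2 and 20.3 at 24 h (-1.57 ± 0.31, adjusted p = 0.000163) and 49.3 and 56.6 in OCT4-FKBP NT against 22.6 and 17.3 at 6 h (-1.41 ± 0.33, adjusted p = 0.00233), the latter not called without OCT4-FKBP 6 h replicate 2 (-1.20). For both intronic peaks the NANOG-FKBP NT and treated libraries overlapped at 24 h.

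The promoter-proximal peak of Sall4, 771 bp downstream of the 5′ end in the untranslated region (chr2:168764626-168767395), was not called in any comparison. It held 451 and 418 in SOX2-FKBP NT and 405 and 473 at 24 h (-0.02 ± 0.15, adjusted p = 0.935), 421 and 393 in OCT4-FKBP NT and 625 and 389 at 24 h (0.32 ± 0.22, 0.336), and 434 and 454 in NANOG-FKBP NT and 417, 647 and 509 at 24 h (0.21 ± 0.21, 0.811). At 24 h the NT and treated libraries overlapped in all 3 lines. Beyond the named peaks, the Sall4 window gained accessibility at few places: the peak 31208 bp upstream, chosen after its values were seen, rose from 27.1 and 43.1 to 85.9 and 77.2 at 6 h of OCT4 depletion (1.18 ± 0.26, adjusted p = 0.00115), and in SOX2-FKBP from 28.1 and 21.4 to 53.4 and 39.3 at 6 h (0.80 ± 0.27, adjusted p = 0.0473). The SOX2 call was lost with DESeq2 (adjusted p = 0.315), with its size factors (0.0552), in the 27-library fit (0.0952) and without SOX2-FKBP NT replicate 1 (1.04) or 2 (0.63) or SOX2-FKBP 6 h replicate 1 (0.59). The sparse peak 46809 bp upstream, also chosen after its values were seen, rose from 7.92 and 5.70 to 16.3 and 32.9 at 24 h of SOX2 depletion (1.76 ± 0.47, adjusted p = 0.00472), a call lost with DESeq2 (adjusted p = 0.0784) and without SOX2-FKBP 24 h replicate 2 (1.15). Of 33 members at Sall4, 28 were tested in SOX2-FKBP, with 6 lost and 3 gained at some time. In OCT4-FKBP 30 were tested, with 5 lost and 2 gained. Over all peaks, 24372 of 160432 tested were lost and 17370 gained at some time in SOX2-FKBP. In OCT4-FKBP 23608 of 166430 were lost and 22140 gained.

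**Figure D3:**
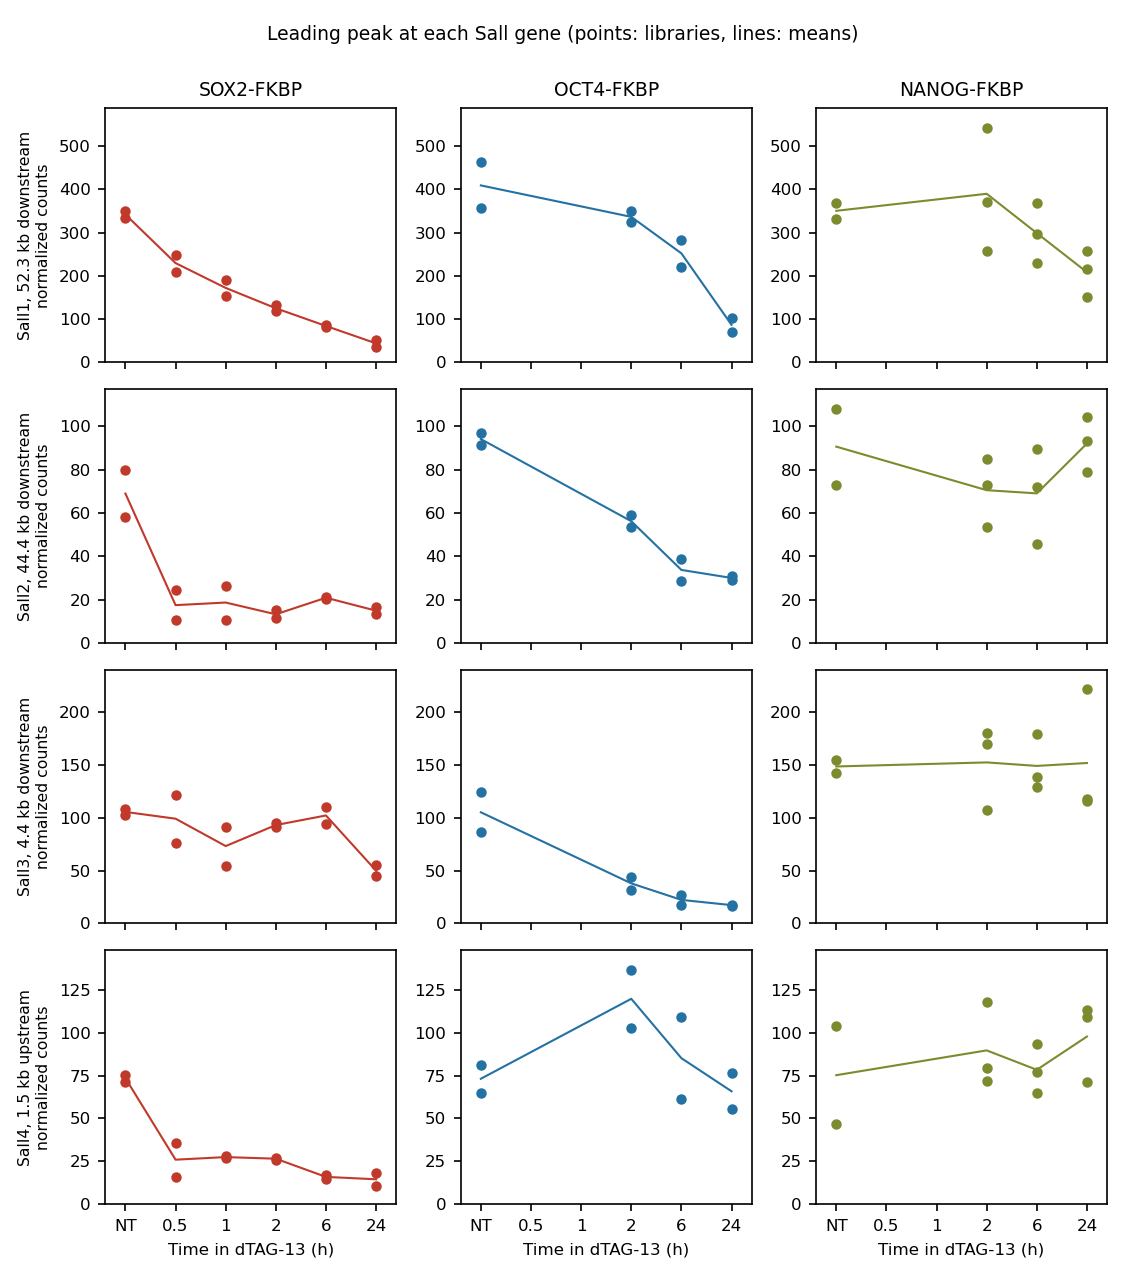
Normalized counts (y axis) against time in dTAG-13 in h (x axis, sampled times evenly spaced with NT first) for the peak with the smallest adjusted p at each Sall gene, with a row per gene and a column per line. Points are libraries and lines join the means. The Sall4 row falls from 75.6 and 71.3 to 18.3 and 10.6 in SOX2-FKBP at 24 h and ends at 76.5 and 55.3 in OCT4-FKBP.

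At Sall1, the leading peak lies 52273 bp downstream of the 5′ end, past the 3′ end of the gene (chr8:88991072-88992741, intergenic). It fell stepwise after SOX2 depletion. In SOX2-FKBP, the NT libraries held 332 and 351 normalized counts, and the treated libraries held 209 and 249 at 0.5 h, 154 and 189.9 at 1 h, 118 and 131 at 2 h, 81.5 and 85.9 at 6 h and 35.6 and 51.2 at 24 h. Each later time was lower than the one before it in both libraries, no treated library overlapped NT, and the 24 h level was 12.7% of that in NT. The differences were -0.64 ± 0.17 at 0.5 h (adjusted p = 0.0186), -1.06 ± 0.17 at 1 h (adjusted p = 3.20e-05), -1.51 ± 0.17 at 2 h (adjusted p = 2.69e-08), -2.07 ± 0.18 at 6 h (adjusted p = 4.33e-11) and -3.0 ± 0.20 at 24 h (adjusted p = 6.76e-14). The 0.5 h call was lost with DESeq2 (adjusted p = 0.108) and without SOX2-FKBP NT replicate 1 (-0.69), SOX2-FKBP NT replicate 2 (-0.61) or SOX2-FKBP 0.5 h replicate 1 (-0.50).

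The NT libraries of OCT4-FKBP held 356 and 462 normalized counts, and the treated libraries held 349 and 323 at 2 h, 284 and 219.9 at 6 h and 70.3 and 102 at 24 h. All treated libraries were below both NT libraries, with differences of -0.29 ± 0.25 at 2 h (adjusted p = 0.687), -0.70 ± 0.25 at 6 h (adjusted p = 0.0569) and -2.25 ± 0.28 at 24 h (adjusted p = 1.03e-07), of which 24 h was called. The 6 h difference was called with the replicate block (-0.70, adjusted p = 0.000524), as it was with library totals (-0.76, adjusted p = 0.0151). In NANOG-FKBP the NT libraries held 332 and 369 and the 24 h libraries 151, 258 and 215, all lower than NT, with a difference of -0.81 ± 0.24 (adjusted p = 0.0662) that was not called. Library totals, the replicate block and leaving out 24 h replicate 2 each brought it past the threshold, although the replicate numbers of this line were not taken to pair its libraries (-0.88, adjusted p = 0.0133 for totals, -0.83, adjusted p = 0.000835 for the block and -0.95). Peaks on chromosome 8 took 5.52% and 7.1% of the counts in the NANOG-FKBP NT libraries and 5.67%, 5.53% and 7.08% at 24 h. In the set with the lower shares NT replicate 1 held 332 against 151 and 258 at 24 h, and in the set with the higher shares NT replicate 2 held 369 against 215.

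The next peaks towards the gene, 46706 and 40585 bp downstream (chr8:88997096-88997761 and chr8:89001909-89004212, both intergenic), were also lost by 24 h. At the former, the SOX2-FKBP NT libraries held 122 and 121 normalized counts, and the treated libraries held 139.7 and 148.1 at 0.5 h, 182 and 114 at 1 h, 179 and 140.2 at 2 h, 167 and 124 at 6 h and 55.0 and 54.1 at 24 h. It was not called up to 6 h, where treated libraries held 114 to 182, and then fell without overlap (-1.19 ± 0.22 at 24 h, adjusted p = 6.98e-05). In OCT4-FKBP it held 25.5 and 49.9 in NT, 18.7 and 19.8 at 6 h and 6.12 and 8.13 at 24 h, with differences of -1.0 ± 0.32 at 6 h (adjusted p = 0.0297) and -2.42 ± 0.47 at 24 h (adjusted p = 0.000140). The NT libraries of that line stood apart, and without NT replicate 2 the 6 h difference was -0.38 and not called. It was also lost without 6 h replicate 1 (-0.95) or 2 (-1.01), with DESeq2 (adjusted p = 0.0564) and with separate fits.

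At 40585 bp downstream, the SOX2-FKBP NT libraries held 261 and 265 normalized counts, and the treated libraries held 203 and 228 at 0.5 h, 202 and 179 at 1 h, 178 and 193 at 2 h, 180.5 and 188 at 6 h and 114 and 149.8 at 24 h. All treated libraries were below both NT libraries, and differences of -0.35 ± 0.16 at 0.5 h (adjusted p = 0.362), -0.52 ± 0.17 at 1 h (adjusted p = 0.0480), -0.56 ± 0.16 at 2 h (adjusted p = 0.0181), -0.56 ± 0.16 at 6 h (adjusted p = 0.0137) and -1.03 ± 0.17 at 24 h (adjusted p = 9.41e-06) were called from 1 h on. The calls at 1, 2 and 6 h were small and each was lost on leaving out any NT library or either library of that time, with differences between -0.63 and -0.47, and DESeq2 called neither 1 h nor 2 h. The 27-library fit did not call 2 h (adjusted p = 0.350) or 6 h (0.273), and 1 h was not called with library totals (0.0666) or without a count filter (0.0613). In OCT4-FKBP the level was 319.6 and 407 in NT, 406 and 421 at 6 h and 151 and 267 at 24 h, a loss called at 24 h (-0.80 ± 0.25, adjusted p = 0.0164) but not without OCT4-FKBP NT replicate 2 (-0.64) or OCT4-FKBP 24 h replicate 1 (-0.46) or with separate fits per line.

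Inside Sall1, the peak in an intron 2956 bp downstream of the 5′ end (chr8:89040882-89041698) moved the other way after OCT4 depletion. The NT libraries of OCT4-FKBP held 87.9 and 91.3 normalized counts, and the treated libraries held 129 and 111 at 2 h, 171 and 129 at 6 h and 237 and 180.4 at 24 h. All treated libraries were above NT, with differences of 0.41 ± 0.25 at 2 h (adjusted p = 0.457), 0.74 ± 0.24 at 6 h (adjusted p = 0.0341) and 1.22 ± 0.25 at 24 h (adjusted p = 0.000266). The 6 h call was lost with DESeq2 (adjusted p = 0.0601), library totals or separate fits and without OCT4-FKBP NT replicate 1 (0.74), OCT4-FKBP NT replicate 2 (0.79) or OCT4-FKBP 6 h replicate 1 (0.53). In SOX2-FKBP the level was 80.9 and 64.2 in NT and 83.5 and 138 at 24 h, a difference of 0.56 ± 0.22 (adjusted p = 0.0636) that was called with the replicate block (0.53, adjusted p = 0.0175) and without 24 h replicate 1 (0.89).

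The promoter-proximal peak of Sall1, 650 bp downstream in an intron (chr8:89042162-89044301), held 362 and 421 in SOX2-FKBP NT and 407 and 558 at 24 h (0.27 ± 0.15, adjusted p = 0.207), and 666 and 536 in OCT4-FKBP NT and 1064 and 688 at 24 h (0.54 ± 0.25, adjusted p = 0.107). It was not called in any comparison in the fits without a block and with no library left out. The OCT4 difference at 24 h was called as a gain with the replicate block (0.52, adjusted p = 0.00379) and without 24 h replicate 2 (0.83), and the SOX2 one without 24 h replicate 1 (0.50). The member with the composite SOX-POU core near its summit, 22396 bp upstream (chr8:89066295-89066661, intergenic) and chosen for its sequence after its values were seen, held 43.1 and 39.9 in SOX2-FKBP NT, 46.0 and 52.2 at 2 h and 12.2 and 23.2 at 24 h. It was not lower than NT at 2 h (0.17 ± 0.25, adjusted p = 0.814) and was lost at 24 h (-1.26 ± 0.31, adjusted p = 0.00203), though not without SOX2-FKBP 24 h replicate 1 (-0.86). In OCT4-FKBP it held 15.6 and 21.9 in NT and 3.06 and 13 at 24 h (-1.26 ± 0.48, adjusted p = 0.0536), a difference of the same size that missed the threshold. Of the 28 members at Sall1, 27 were tested in SOX2-FKBP, with 6 lost and 0 gained by edgeR at some time. In OCT4-FKBP 28 were tested, with 3 lost and 4 gained. Over all peaks, 24372 of 160432 tested were lost and 17370 gained at some time in SOX2-FKBP. In OCT4-FKBP 23608 of 166430 were lost and 22140 gained.

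At Sall3, the leading peak lies in an intron 4419 bp downstream of the 5′ end (chr18:80982235-80983063) and fell strongly after OCT4 depletion. In OCT4-FKBP, the NT libraries held 86.3 and 124 normalized counts, and the treated libraries held 32.0 and 44.0 at 2 h, 17.4 and 27.2 at 6 h and 16.8 and 17.9 at 24 h. No treated library overlapped NT, and the 24 h level was 16.5% of that in NT. The differences were -1.46 ± 0.28 at 2 h (adjusted p = 0.000403), -2.24 ± 0.29 at 6 h (adjusted p = 2.93e-07) and -2.60 ± 0.36 at 24 h (adjusted p = 5.81e-07). In SOX2-FKBP, the NT libraries held 103 and 108 normalized counts, and the treated libraries held 76.4 and 122 at 0.5 h, 54.8 and 91.8 at 1 h, 95.0 and 91.4 at 2 h, 94.1 and 110.5 at 6 h and 44.8 and 55.1 at 24 h. The values at 0.5 and 6 h overlapped NT, those at 24 h did not, and the loss was called at 24 h (-1.11 ± 0.24, adjusted p = 0.000541). At 1 h the difference was -0.63 ± 0.24 (adjusted p = 0.127), called with the replicate block (-0.65, adjusted p = 0.0125) and without 1 h replicate 2 (-1.03). In NANOG-FKBP the NT libraries held 155 and 143 and the 24 h libraries 116, 222 and 118, which overlapped.

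The peak 5902 bp upstream of Sall3 (chr18:80992071-80993212, intergenic) was gained at all 5 times of SOX2 depletion. The NT libraries of SOX2-FKBP held 37.8 and 37.1 normalized counts, and the treated libraries held 67.9 and 70.0 at 0.5 h, 88.1 and 70.0 at 1 h, 80.0 and 78.4 at 2 h, 91.2 and 76.1 at 6 h and 71.3 and 59.0 at 24 h. All 10 treated libraries were above both NT libraries. The differences were 0.81 ± 0.24 at 0.5 h (adjusted p = 0.0478), 1.03 ± 0.23 at 1 h (adjusted p = 0.00319), 1.01 ± 0.23 at 2 h (adjusted p = 0.00167), 1.097 ± 0.22 at 6 h (adjusted p = 0.000406) and 0.75 ± 0.23 at 24 h (adjusted p = 0.0155). The calls at 0.5 h and 24 h were lost with DESeq2 (adjusted p = 0.340 and 0.106), and on leaving out a library the 0.5 h call was lost in all 4 cases (0.79 to 0.85), the 1 h call without SOX2-FKBP NT replicate 1 (1.03) or SOX2-FKBP 1 h replicate 1 (0.84) and the 24 h call without SOX2-FKBP NT replicate 1 (0.76), SOX2-FKBP NT replicate 2 (0.73) or SOX2-FKBP 24 h replicate 1 (0.64).

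In NANOG-FKBP, the NT libraries held 47.8 and 58.2 normalized counts, and the treated libraries held 34.0, 45.7 and 19.9 at 2 h, 35.6, 28.7 and 33.5 at 6 h and 22.8, 9.05 and 9.06 at 24 h. The treated libraries lay below both NT libraries, and the 24 h loss was called (-1.71 ± 0.37, adjusted p = 0.00373), though not without NANOG-FKBP NT replicate 2 (-1.57) or NANOG-FKBP 24 h replicate 3 (-1.40). In OCT4-FKBP the NT libraries held 41.9 and 43.1 and the 24 h libraries 24.5 and 30.9, lower without overlap and not called (-0.62 ± 0.36, adjusted p = 0.231). The gain after SOX2 depletion and the loss after NANOG depletion were not tested against each other.

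The promoter peak of Sall3, with its summit 28 bp downstream of the 5′ end (chr18:80985693-80988396, untranslated region), was gained at 24 h in both the SOX2 and the OCT4 time course. It held 174 and 175 in SOX2-FKBP NT and 249 and 358 at 24 h, and 230.0 and 167 in OCT4-FKBP NT, 359 and 214 at 6 h and 440.4 and 309 at 24 h. The 24 h libraries were above all NT libraries of their line. The differences were 0.76 ± 0.19 (adjusted p = 0.00304) for SOX2 and 0.92 ± 0.28 (adjusted p = 0.0130) for OCT4, and with the replicate block 6 h of OCT4 depletion was called too (0.51, adjusted p = 0.0361). The SOX2 call was lost without SOX2-FKBP NT replicate 1 (0.75) or SOX2-FKBP 24 h replicate 2 (0.47) and the OCT4 call without OCT4-FKBP NT replicate 2 (0.67) or OCT4-FKBP 24 h replicate 1 (0.63). In NANOG-FKBP the NT libraries held 136 and 258 and the 24 h libraries 229, 158 and 206, which overlapped. The peaks nearest the 5′ ends of Sall1, Sall2 and Sall4 were not called in the fits without a block and with no library left out. The Sall1 peak was called as a gain at 24 h of OCT4 depletion with the block (0.52, adjusted p = 0.00379) or without 24 h replicate 2 (0.83). It was also called at 24 h of SOX2 depletion without 24 h replicate 1 (0.50). A difference between genes was not tested.

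Further gains at 24 h of OCT4 depletion were at the peak in a coding exon 12472 bp downstream (chr18:80973308-80974853) and at the peak 52845 bp downstream (chr18:80933416-80934345). The summit of the second lies in a coding exon of Atp9b, 134 bp from the 5′ end of that gene, so it is at the promoter of a neighboring gene. The former held 107 and 106 in NT and 223 and 193 at 24 h (0.97 ± 0.22, adjusted p = 0.000824), and its 6 h difference of 0.54 (adjusted p = 0.0931) was called with the replicate block (0.52, adjusted p = 0.0159). The latter held 124 and 123 and 272 and 206 (0.95 ± 0.22, adjusted p = 0.00141), a call lost without OCT4-FKBP 24 h replicate 1 (0.73). After SOX2 depletion neither was called at 24 h, with differences of 0.37 ± 0.22 and 0.24 ± 0.17.

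Additional peaks of this window were chosen after their values were seen. The peak 2631 bp upstream (chr18:80989270-80989582, intergenic) fell from 55.0 and 35.3 in OCT4-FKBP NT to 14.5 and 20.3 at 2 h and 10.7 and 14.6 at 24 h, with differences of -1.32 ± 0.33 at 2 h (adjusted p = 0.00726) and -1.81 ± 0.41 at 24 h (adjusted p = 0.000882), the former not called without OCT4-FKBP NT replicate 1 (-0.98) or 2 h replicate 1 (-1.13), and held 32.5 and 22.8 in SOX2-FKBP NT and 24.4 and 22.2 at 24 h. The sparse peak 35902 bp downstream (chr18:80950791-80951071, intergenic) rose from 2.46 and 2.80 to 12.2 and 8.13 at 24 h of OCT4 depletion (1.89 ± 0.60, adjusted p = 0.0184) and fell from 16.9 and 13.3 to 4.07, 0 and 3.88 at 24 h of NANOG depletion (-2.05 ± 0.55, adjusted p = 0.0285). DESeq2 gave no adjusted p for either. The NANOG call was lost on leaving out any NT or 24 h library (-2.31 to -1.86), and the OCT4 call without OCT4-FKBP NT replicate 1 (1.79) or 2 (1.97) or 24 h replicate 1 (1.56). Of 21 members at Sall3, 19 were tested in SOX2-FKBP, with 1 lost and 4 gained at some time. In OCT4-FKBP 20 were tested, with 3 lost and 6 gained. In NANOG-FKBP 2 of 20 were lost, both at 24 h (2.25% of all peaks tested). Over all peaks, 24372 of 160432 tested were lost and 17370 gained at some time in SOX2-FKBP. In OCT4-FKBP 23608 of 166430 were lost and 22140 gained.

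In the Sall2 window, the leading peak lies 44397 bp downstream of the Sall2 5′ end (chr14:52284068-52284791), in an intron of Tox4, a gene for a chromatin-associated HMG box protein, and its nearest protein-coding start is that of Rab2b, a small GTPase gene. The SOX2-FKBP NT libraries held 58.1 and 79.9 normalized counts, and the treated libraries held 10.4 and 24.4 at 0.5 h, 10.7 and 26.5 at 1 h, 15.0 and 11.3 at 2 h, 20.4 and 21.3 at 6 h and 13.2 and 16.4 at 24 h. All treated libraries lay below NT, and the group means stayed between 19.1% and 30.2% of NT. The differences were -2.15 ± 0.34 at 0.5 h (adjusted p = 8.47e-05), -2.02 ± 0.34 at 1 h (adjusted p = 6.45e-05), -2.42 ± 0.33 at 2 h (adjusted p = 1.06e-06), -1.74 ± 0.30 at 6 h (adjusted p = 3.99e-05) and -2.21 ± 0.33 at 24 h (adjusted p = 1.97e-06). Without 0.5 h replicate 1 the 0.5 h difference was -1.51 and not called.

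The OCT4-FKBP NT libraries held 96.9 and 91.3 normalized counts, and the treated libraries held 53.3 and 59.0 at 2 h, 28.4 and 38.9 at 6 h and 29.1 and 30.9 at 24 h. All were below NT, and the differences were -0.74 ± 0.25 at 2 h (adjusted p = 0.0679), -1.48 ± 0.26 at 6 h (adjusted p = 4.22e-05) and -1.65 ± 0.30 at 24 h (adjusted p = 6.01e-05), called at 6 and 24 h and, with the replicate block, at 2 h too (-0.74, adjusted p = 0.00684). In NANOG-FKBP the NT libraries held 108 and 73.1 and the 24 h libraries 78.9, 104 and 93.2, which overlapped.

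Promoters of neighboring genes were gained at 24 h: the peak 23722 bp downstream at Mettl3 (chr14:52304267-52305403, untranslated region) and the peak 49317 bp downstream over the starts of Rab2b and Tox4 (chr14:52278770-52279927, untranslated region). The Mettl3 peak held 171 and 188 in SOX2-FKBP NT and 258 and 250.3 at 24 h (0.47 ± 0.17, adjusted p = 0.0441) and 241 and 231 in OCT4-FKBP NT and 466 and 317 at 24 h (0.73 ± 0.22, 0.0113). The Rab2b and Tox4 peak held 307 and 324 and 460.2 and 403 (0.42 ± 0.15, 0.0347), and 421 and 391.7 and 832 and 484 (0.70 ± 0.24, 0.0324). In all 4 cases the 24 h libraries were above NT. Both SOX2 calls were lost with DESeq2 and in the 27-library fit, and the Mettl3 one also with DESeq2's size factors in edgeR (adjusted p = 0.0552). By edgeR the OCT4 call at Mettl3 was lost with library totals (adjusted p = 0.0510). The OCT4 call at Rab2b and Tox4 was lost with separate fits per line (adjusted p = 0.114). Each of the 4 was lost on leaving out any of 3 or 4 libraries, with differences between 0.25 and 0.73. The peak nearest the Sall2 5′ end, 473 bp downstream (chr14:52327428-52328504, untranslated region), held 13.2 and 20.0 in SOX2-FKBP NT and 12.2 and 12.6 at 24 h (-0.39 ± 0.42, adjusted p = 0.549) and was not called in any comparison. Of 18 members at Sall2, 11 were tested in SOX2-FKBP, with 1 lost and 2 gained at some time. In OCT4-FKBP 14 were tested, with 2 lost and 2 gained. Over all peaks, 24372 of 160432 tested were lost and 17370 gained at some time in SOX2-FKBP. In OCT4-FKBP 23608 of 166430 were lost and 22140 gained.

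**Figure D4:**
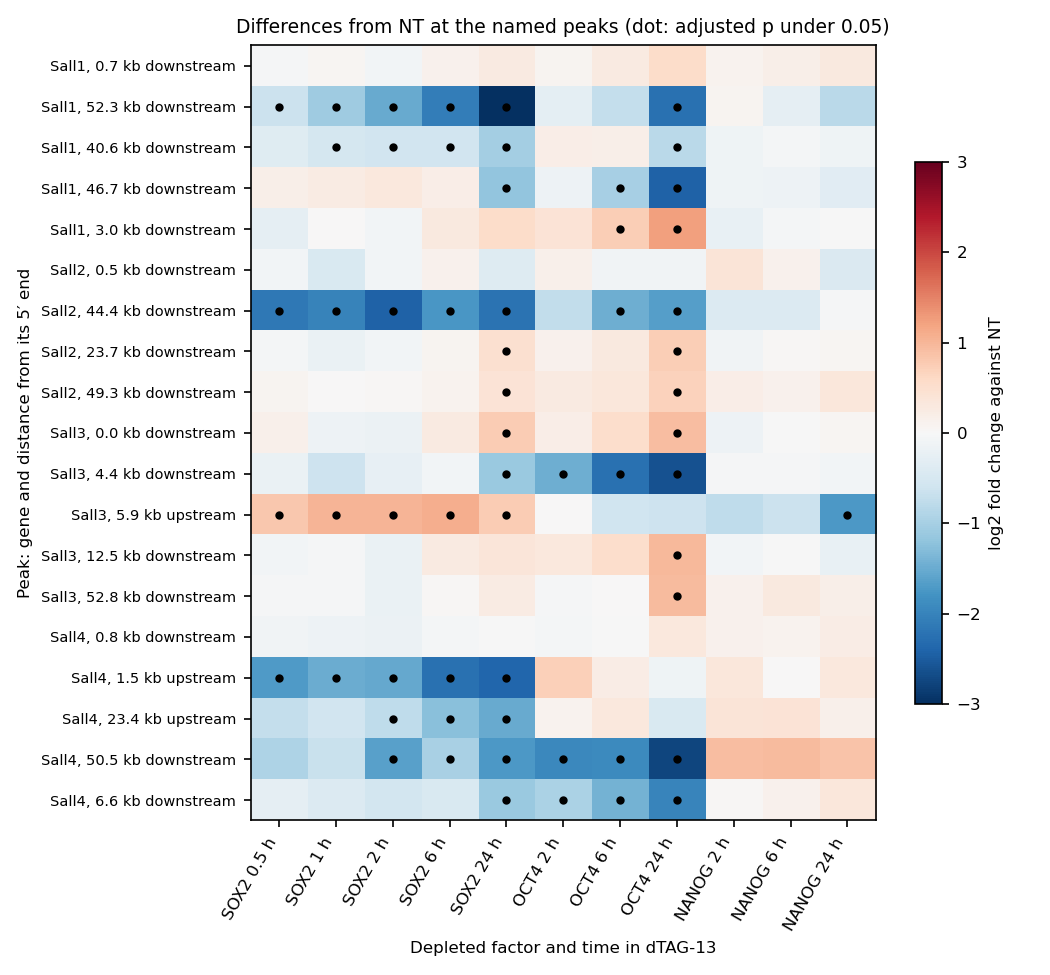
Log2 fold change against NT (color scale) of the 19 named peaks (rows, by gene and distance from the 5′ end) in the 11 comparisons (columns, by depleted factor and time), with a dot where the adjusted p is under 0.05. The NANOG columns hold a dot at 24 h for the Sall3 peak 5902 bp upstream (-1.71), and the rows of the promoter-proximal peaks of Sall1, Sall2 and Sall4 hold none.

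A call after the loss of SOX2 beside none after the loss of OCT4 does not show that the responses differ, so the difference of the changes was tested in the fit of the 3 lines. The responses differed at 2 of 92 members at 2 h (1.57% of all peaks tested), at 6 at 6 h (2.73%) and at 1 at 24 h (2.77%). With the replicate block 7 members differed at 2 h and 5 at 24 h. With library totals 1 differed at 2 h, and at 24 h the share of all differing peaks that were higher after SOX2 depletion was 51.1% in place of 39.8%. Without SOX2-FKBP 24 h replicate 2, or without OCT4-FKBP 24 h replicate 1, 0 members differed at 24 h by edgeR.

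The Sall4 peak 1519 bp upstream differed at all 3 shared times. In this fit its SOX2 change was -1.47 ± 0.34 at 2 h, -2.198 ± 0.36 at 6 h and -2.34 ± 0.38 at 24 h, and SOX2 minus OCT4 was -2.18 ± 0.44 (adjusted p = 0.00348), -2.42 ± 0.46 (adjusted p = 0.000926) and -2.202 ± 0.50 (adjusted p = 0.00746). The 24 h difference was not called without SOX2-FKBP 24 h replicate 2 (-1.89) or OCT4-FKBP 24 h replicate 1 (-1.99). Lower after SOX2 than after OCT4 depletion were also the Sall4 peak 23358 bp upstream at 6 h (-1.52 ± 0.38, adjusted p = 0.0165), the Sall1 peak 52273 bp downstream at 6 h (-1.32 ± 0.37, adjusted p = 0.0354) and the Sall2-window peak in Tox4 at 2 h (-1.63 ± 0.42, adjusted p = 0.0313).

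The peaks at Sall3 differed in the other direction. The intronic peak 4419 bp downstream fell more after OCT4 depletion, with a SOX2 change of -0.04 ± 0.27 and a difference of 2.199 ± 0.40 (adjusted p = 0.000491) at 6 h. The difference was 1.78 ± 0.48 (adjusted p = 0.0287) at the peak 2631 bp upstream, where OCT4 depletion gave the loss, and 1.75 ± 0.44 (adjusted p = 0.0168) at the peak 5902 bp upstream, where SOX2 depletion gave the gain. At the Atp9a intron peak 50533 bp downstream of the Sall4 5′ end, lost in both lines, the difference was 0.35 ± 0.56 (adjusted p = 0.958) at 2 h and 0.98 ± 0.51 (adjusted p = 0.469) at 6 h, which does not show that the responses are alike.

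**Figure D5:**
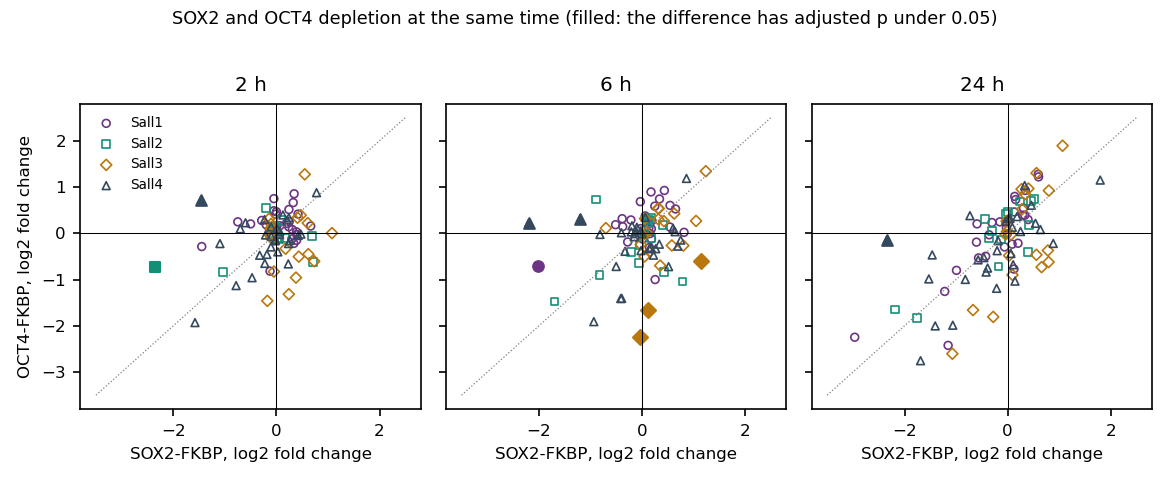
Log2 fold change after OCT4 depletion (y axis) against that after SOX2 depletion (x axis) at 2, 6 and 24 h for each tested member, colored by gene. Filled points are those whose difference has an adjusted p under 0.05, and the dotted line marks equal changes. The Sall4 peak 1519 bp upstream lies at -1.47 on the SOX2 axis and 0.71 on the OCT4 axis at 2 h.

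NuRD is the co-repressor that SALL proteins bind, and its subunits include the remodelers Chd3 and Chd4, the deacetylases Hdac1 and Hdac2, the histone chaperones Rbbp4 and Rbbp7, and the Mta, Mbd and Gatad2 proteins. All 13 listed NuRD genes had a tested promoter peak. By edgeR 0 of 13 were lost in any comparison, with 0 lower at an unadjusted p under 0.05 and 0 lost by DESeq2. At 24 h of SOX2 depletion 2 were gained, Mbd3 (0.44) and Mta3 (0.49), and DESeq2 called 0, and at 24 h of OCT4 depletion 5 were gained by edgeR and 5 by DESeq2, beside 9.17% and 10.8% of all peaks tested. At an unadjusted p under 0.05, 6 were higher at 24 h for SOX2 and 8 for OCT4. The edgeR genes were Chd3 (1.20), Mbd2 (1.1), Hdac2 (0.82), Rbbp4 (0.77) and Mta3 (0.74). The median difference of the 13 promoters at 24 h was 0.31 for SOX2 and 0.53 for OCT4, beside 0.04 and -0.01 over all peaks tested. Promoters of other genes were not set beside them as a group. At 24 h of OCT4 depletion the promoter peaks of Sall3 (0.92), Atp9b (0.95), Mettl3 (0.73) and Rab2b with Tox4 (0.70) were also gained. Each of these calls depended on single libraries, as given above. The peaks nearest the 5′ ends of Sall1, Sall4 and Sall2 (-0.10) were not called there in the fit without a block. Whether the values are particular to NuRD genes was not tested.

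Peaks outside the windows whose log2 levels over the 31 libraries were most like those of a leading peak are given as a description, since the libraries share their lines and depth. Among 48702 peaks the closest to the Sall4 peak were nearest to the starts of Tcf20 (Pearson r = 0.938), Ube2r2 (0.935) and Map4k5 (0.933), and the closest to the Sall1 peak to 1700024P04Rik (0.953), Celf4 (0.952) and Cd33 (0.950). For the Sall2-window peak they were nearest to Dicer1 (0.942), Zranb2 (0.933) and Plcb1 (0.931), and for the Sall3 peak to 1700012A03Rik (0.962), Gfpt2 (0.960) and Nostrin (0.952). The gene names mark position only, as these peaks lay from 3440 bp (Cd33) to 1972458 bp (Celf4) from the starts named.

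Total counts were 5664738 to 10887645 in the 12 SOX2-FKBP libraries, 6378962 to 17575631 in the 8 OCT4-FKBP libraries and 1817191 to 12437876 in the 11 NANOG-FKBP libraries, so low peaks in NANOG-FKBP are the least precise. Of 8 embryonic stem cell markers 7 had a promoter peak (not Pou5f1), summing to 1328 to 1706 normalized counts in NT libraries and 1260 to 1960 in treated ones. By line, these sums were 1328 to 1428 in NT and 1260 to 1432 in treated libraries of SOX2-FKBP. They were 1553 to 1706 and 1400 to 1960 in OCT4-FKBP, and 1491 to 1567 and 1398 to 1897 in NANOG-FKBP. The stem cell list and the lists for other cell types all had their highest sum in OCT4-FKBP treated libraries. There the trophectoderm list (5 of 5 genes with a peak) summed to 751 to 902 in NT and 701 to 1119 in treated libraries, primitive endoderm (3 of 5, not Gata4 or Pdgfra) to 559 to 592 and 564 to 962, fibroblast (3 of 5, not Col1a1 or Prrx1) to 328 to 355 and 320.2 to 459, and neural (3 of 4, not Neurog2) to 726 to 762 and 602 to 1028. In SOX2-FKBP the sums were 397 to 398 and 381 to 519, 330 to 354 and 274 to 438, 168 to 171 and 163 to 222, and 344 to 365 and 277 to 444, and in NANOG-FKBP 502 to 797.5 and 555 to 769, 399 to 708 and 412 to 763, 228 to 306 and 183 to 336, and 416 to 648 and 466 to 699, in the same order. Their part in the Sall results was not tested. ATACseq counts do not show whether the tagged protein was degraded.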

How the data were processed

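ATACseq was done by the authors in mouse embryonic stem cells of the SOX2-FKBP, OCT4-FKBP and NANOG-FKBP lines. The authors aligned reads to mm10, removed duplicates, called peaks over merged libraries with MACS2 and deposited a table of raw fragment counts per peak, without normalization. The submitters' processing notes name BWA 0.7.17-r1188, SAMtools 1.10 and Picard 2.12.0. The peak list that the authors deposited also gives a fold enrichment (a ratio to local background) for each peak, which was used for no comparison. Of 45 samples, 31 have a column of counts, and the other 14 were not analysed here.

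Positions are those of mm10, with gene models from GENCODE and sequence from RefSeq GRCm38.p6. The test was the quasi-likelihood F test of edgeR 4.0.16 (R 4.3.3) after TMM scaling, with a threshold of 0.05. The fit of the SOX2 time course held 12 libraries and the 160432 peaks in which over 2 libraries had over 10 counts. The joint fit of the 3 lines held 27 libraries and the 166430 peaks in which over 6 libraries had over 10 counts. A design without a block, as in the study's methods, was used, and the study's tool, DESeq2 1.42.0, is an alternative. A standard error is the absolute log2 fold change over the root of its F value. Printed levels use TMM over 31 libraries per 10000000 counts. The scripts were tested on simulated data. Tables and motif searches were made in Python 3.11.15 with pandas 2.3.3 and numpy 2.4.6.

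The members and gene lists were chosen with earlier results of these data known. Named peaks are the peak nearest each 5′ end and up to 4 more per gene with the smallest adjusted p under 0.05 whose higher group averages 50 normalized counts or more. Marker and NuRD promoters are peaks with a summit within 1 kb of a 5′ end.

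To see whether replicate numbers pair the libraries, their deviations from the group means were correlated between conditions. In SOX2-FKBP the 15 correlations ran from 0.125 to 0.482 at peaks averaging 50 normalized counts or more and from 0.0811 to 0.225 over all peaks. In OCT4-FKBP the 6 ran from 0.329 to 0.599 and from 0.140 to 0.349. The numbers were taken to pair the libraries of these lines. In NANOG-FKBP the lowest of 6 was 0.0121, and they were not. Alternatives were DESeq2's test and size factors, library totals, no count filter, the replicate block, the 27-library fit for SOX2, separate fits per line and leaving out each library.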

Additional observations from a re-analysis of the deposited data

Results flagged for a closer look

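At 7 of the 92 members tested, the change after SOX2 depletion differed from the change after OCT4 depletion by a test of the difference itself (edgeR, adjusted p under 0.05 over all peaks tested), at 9 combinations of peak and time. By time, 2 members differed at 2 h, 6 at 6 h and 1 at 24 h, where 1.57%, 2.73% and 2.77% of all peaks tested differed. The share of all peaks that differed at any of these times was not computed. Values are SOX2 minus OCT4 on the log2 scale, with 2 libraries in each group.

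The Sall4 peak 1519 bp upstream of the 5′ end gave -2.18 at 2 h, -2.42 at 6 h and -2.202 at 24 h, so relative to NT its level was lower after SOX2 than after OCT4 depletion. The 24 h value was not called without SOX2-FKBP 24 h replicate 2 (-1.89) or OCT4-FKBP 24 h replicate 1 (-1.99). The Sall4 peak 23358 bp upstream gave -1.52 at 6 h, which was not called without SOX2-FKBP NT replicate 1 (-1.54) or 2 (-1.50), SOX2-FKBP 6 h replicate 1 (-1.54) or 2 (-1.49), or OCT4-FKBP 6 h replicate 1 (-1.25). The Sall1 peak 52273 bp downstream gave -1.32 at 6 h, which was not called without SOX2-FKBP NT replicate 1 (-1.37) or 2 (-1.28), SOX2-FKBP 6 h replicate 1 (-1.28) or 2 (-1.37), OCT4-FKBP NT replicate 1 (-1.24) or OCT4-FKBP 6 h replicate 1 (-1.20).

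The Sall2-window peak 44397 bp downstream, in an intron of Tox4, gave -1.63 at 2 h. It was not called with library totals (-1.58), or without SOX2-FKBP NT replicate 2 (-1.40), SOX2-FKBP 2 h replicate 1 (-1.83) or 2 (-1.43), OCT4-FKBP NT replicate 2 (-1.67), or OCT4-FKBP 2 h replicate 1 (-1.69) or 2 (-1.65).

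The Sall3 peaks differed in the other direction, all at 6 h. The intronic peak 4419 bp downstream gave 2.199 and kept its call in each of the 8 cases in which a library was left out. The peak 2631 bp upstream gave 1.78, which was not called with DESeq2 (1.82) or without SOX2-FKBP NT replicate 1 (2.09) or 2 (1.59), SOX2-FKBP 6 h replicate 1 (1.69) or 2 (1.88), OCT4-FKBP NT replicate 1 (1.36) or OCT4-FKBP 6 h replicate 2 (1.47). The peak 5902 bp upstream gave 1.75, which was not called without SOX2-FKBP NT replicate 1 (1.77) or 2 (1.74), SOX2-FKBP 6 h replicate 1 (1.63), OCT4-FKBP NT replicate 2 (1.65) or OCT4-FKBP 6 h replicate 1 (1.28).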

How the results depend on the processing

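None of the 101 called values at the members changed sign under the alternatives that tested it, in 793 cases still called, 233 not called and 2 without an adjusted p. With the replicate block the counts of called members that moved by more than 1.5 times were 5 lost at 0.5 h and 2 gained at 2 h for SOX2, 6 gained at 2 h, 8 gained at 6 h and 19 lost at 24 h for OCT4, and 7 and 5 differing between SOX2 and OCT4 at 2 h and 24 h. All 49 SOX2, 41 OCT4 and 2 NANOG calls at the members were also made with the block. It changed no other call of a named peak than those given above.

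With DESeq2's test SOX2 depletion gave 0 gained members at 0.5 h, 1 at each of 1, 6 and 24 h, and 5 lost at 2 h. For OCT4 3 were lost and 0 gained at 2 h, and for NANOG 1 was lost at 24 h. With DESeq2's size factors in edgeR 0 were gained at 0.5 h for SOX2. In the 27-library fit SOX2 had 5 lost at 2 h, 1 gained at 6 h and 2 gained at 24 h. With library totals 2 were gained at 2 h for SOX2, 0 at 2 h and 1 at 6 h for OCT4, and 1 differed at 2 h. With separate fits per line 0 were gained at 2 h and 1 at 6 h for OCT4, and 1 was lost at 24 h for NANOG.

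Leaving out each library in turn (leave-one-out) gave, for SOX2, 0 to 4 lost and 0 to 0 gained at 0.5 h, 0 to 2 gained at 1 h, 5 to 5 lost at 2 h, 4 to 5 lost and 1 to 2 gained at 6 h and 1 to 4 gained at 24 h. The lowest count came without 0.5 h replicate 1 for losses at 0.5 h, without NT replicate 1 or 1 h replicate 1 at 1 h, without NT replicate 2 or 6 h replicate 2 for losses at 6 h, and without NT replicate 1 for gains at 24 h. For OCT4 it gave 2 to 3 lost and 0 to 2 gained at 2 h, 1 to 2 gained at 6 h and 4 to 11 gained at 24 h, and for NANOG 0 to 2 lost at 24 h. For the difference between SOX2 and OCT4 it gave 1 to 2 at 2 h, 2 to 5 at 6 h and 0 to 2 at 24 h. Where an arm is left with 1 library, it is assumed to vary like the other groups. At the 19 named peaks, 862 values computed without a library stayed on their side of the threshold, 88 fell back over it and 7 moved past it.

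The low counts came without OCT4-FKBP 24 h replicate 1 for gains at 24 h, and without NANOG-FKBP NT replicate 2 or 24 h replicate 3 for losses at 24 h. With 2 libraries a group, 1 library can decide a call. In NANOG-FKBP, where chromosome 8 shares set NT replicate 2 beside the replicates 3, no block crossing the numbers was fitted.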
